A study of Mus musculus with 10 samples.

Results

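The loci described here are those of 10 endothelial genes, Cdh5, Pecam1, Kdr, Flt1, Tek, Tie1, Emcn, Erg, Fli1 and Sox17, in ATAC-seq peak lists of mouse bone marrow stroma. ATAC-seq tags open DNA with a transposase, and each peak marks a stretch cut more often than its surroundings. The genes were chosen by name as endothelial markers, with earlier results of these data known, and a locus is the mm10 gene body with 10 kb on either side. They are 10 of 21627 protein-coding loci, span 1115 kb together, and held the summits of 301 peaks in the 10 libraries.

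The libraries fall into 4 groups, all labelled strain C57BL/6J. rMSC ("revitalized MSCs", n = 3) are cultured stromal cells transduced with Klf7, Ostf1, Xbp1 and the interferon regulatory factors Irf3 and Irf7, and control stroma (n = 3) is cultured stroma transduced with a control vector. Both cultures were seeded from CD45(-) Ter119(-) CD31(-) Scf-GFP(+) cells of digested bone marrow, in medium with 20% serum and 10 ng/ml FGF-basic. Scf-GFP(+) (n = 2) and Scf-GFP(-) (n = 2) are freshly sorted cells of the same CD45(-) Ter119(-) CD31(-) gate that carried no transduced gene and that had or lacked the GFP reporter of stem cell factor. Whether the replicates are different animals or cultures is not in the labels, and every p-value is therefore against a spread of libraries that could be technical. CD31, the antigen of the gate, is the product of Pecam1, so every group was sorted, or grown from cells sorted, against that endothelial surface protein.

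Endothelial cells line blood vessels, including the sinusoids of bone marrow. VEGF signals through the receptors VEGFR2 (Kdr) and VEGFR1 (Flt1), and angiopoietins signal through TIE2 (Tek) with its relative TIE1 (Tie1). VE-cadherin (Cdh5) and CD31 (Pecam1) hold the cells together, endomucin (Emcn) coats sinusoidal and venous vessels, and the ETS factors ERG and FLI1 and the SOX factor SOX17 drive the endothelial programme. Several of these genes also work outside vessels: Erg and Fli1 act in blood stem cells and megakaryocytes, Tek is found on blood stem cells, and Pecam1 is found on platelets and leukocytes.

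The lists held 66282, 70975 and 78489 peaks in rMSC 1 to 3, 48417, 75376 and 72791 in control stroma 1 to 3, 47679 and 68298 in Scf-GFP(+) 1 and 2, and 46947 and 39936 in Scf-GFP(-) 1 and 2. Because list length differed, tests used equal-size lists, the 39912 strongest peaks of each library. The weakest −log10 q in them was 2.65 and 2.10 in Scf-GFP(-) and 4.27 to 5.80 in the other libraries. The sequencing depth is unknown, so a peak missing from a list says only that it was not called there. Scf-GFP(-) stood apart in its markers: over 12 mesenchymal loci (Pdgfra, Prrx1, Cxcl12 and others) the summed summits per library were 48 to 50 in rMSC, 60 to 65 in control stroma, 79 to 87 in Scf-GFP(+) and 11 to 16 in Scf-GFP(-). Over 10 pan-blood loci the sums were 16 to 19, 15 to 16, 20 to 21 and 47 to 57 in the same order of groups, and over 8 megakaryocyte and erythroid loci they were 12 to 14, 12 to 15, 13 to 18 and 29 to 35. The part of these markers in the results against Scf-GFP(-) was not tested. A library pools 2700 to 5000 cells, so fewer cells with an open site and less opening per cell cannot be told apart.

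Few of the endothelial start sites examined had a peak within 500 bp. In the RefSeq promoter table used here (GRCm38.p6), 6 of the 10 genes (Kdr, Flt1, Tek, Tie1, Emcn and Erg) were matched. The 250 bases before the start are printed for 5 of them: 4 because a peak of at least 1 library lay within 500 bp of the start, and Tie1, where none did. Emcn, where none did either, is not printed. Capitals mark GGAA or its reverse complement TTCC, the core bound by ETS factors, the family of ERG and FLI1.
Tek (chromosome 4, + strand): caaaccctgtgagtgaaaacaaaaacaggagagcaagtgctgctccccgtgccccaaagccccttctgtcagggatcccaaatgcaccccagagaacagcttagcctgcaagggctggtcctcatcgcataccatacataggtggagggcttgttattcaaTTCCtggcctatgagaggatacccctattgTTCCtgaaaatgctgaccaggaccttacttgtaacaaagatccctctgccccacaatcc
Kdr (chromosome 5, − strand): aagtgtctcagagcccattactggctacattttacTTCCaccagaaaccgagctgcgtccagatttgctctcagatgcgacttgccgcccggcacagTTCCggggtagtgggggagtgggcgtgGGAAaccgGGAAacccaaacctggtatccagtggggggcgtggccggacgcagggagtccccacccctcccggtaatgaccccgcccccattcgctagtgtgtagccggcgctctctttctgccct
Flt1 (chromosome 5, − strand): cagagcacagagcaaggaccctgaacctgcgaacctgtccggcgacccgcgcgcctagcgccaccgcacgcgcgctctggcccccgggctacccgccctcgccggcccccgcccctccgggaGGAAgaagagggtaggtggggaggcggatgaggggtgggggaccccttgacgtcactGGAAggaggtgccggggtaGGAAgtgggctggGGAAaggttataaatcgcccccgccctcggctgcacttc
Erg, first listed start (chromosome 16, − strand): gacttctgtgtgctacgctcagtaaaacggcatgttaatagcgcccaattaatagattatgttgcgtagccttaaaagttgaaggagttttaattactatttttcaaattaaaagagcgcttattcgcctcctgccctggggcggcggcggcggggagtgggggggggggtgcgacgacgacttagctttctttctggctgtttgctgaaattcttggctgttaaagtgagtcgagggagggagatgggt
Tie1 (chromosome 4, − strand): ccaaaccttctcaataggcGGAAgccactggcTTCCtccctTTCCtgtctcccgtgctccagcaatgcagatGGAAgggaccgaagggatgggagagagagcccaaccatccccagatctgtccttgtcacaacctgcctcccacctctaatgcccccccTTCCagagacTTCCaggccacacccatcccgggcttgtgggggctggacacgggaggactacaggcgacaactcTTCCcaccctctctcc
The windows are chr4:94739039-94739288, chr5:75978456-75978705, chr5:147726012-147726261, chr16:95586594-95586843 and chr4:118489850-118490099 in the order printed. GGAA or TTCC, the same core read on either strand, which cannot overlap each other, occurred 2 times in the Tek window, 4 times in each of Kdr and Flt1, 0 times in Erg and 7 times in Tie1. The Emcn window held 4. Of 21044 mouse promoters of this length 93.1% hold at least 1 core, with a median of 3, and 3.84% hold 7 or more. The match is of letters alone and says nothing of binding.

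A peak lay within 500 bp of the Flt1 start in rMSC 1, rMSC 2, control stroma 3 and Scf-GFP(+) 2. The same held for the Tek start in rMSC 3 and in all 3 control libraries, for the first Erg start in control stroma 1 and 2, and for the Kdr start in both Scf-GFP(+) libraries. Neither Scf-GFP(-) library had a peak within 500 bp of any of the 6, and no library had one that near the Tie1 or Emcn start. Each library thus had a peak within 500 bp of 0 to 2 of the 6 start sites, while 50.1 to 59.8% of 17273 genes with a listed start had one. The peaks near the Kdr start were weak, with a deposited fold enrichment of 4.26 in Scf-GFP(+) 1 and 4.40 in Scf-GFP(+) 2, which placed them at strength percentiles 8.10 and 29.8 of their own lists.

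**Figure D1:**
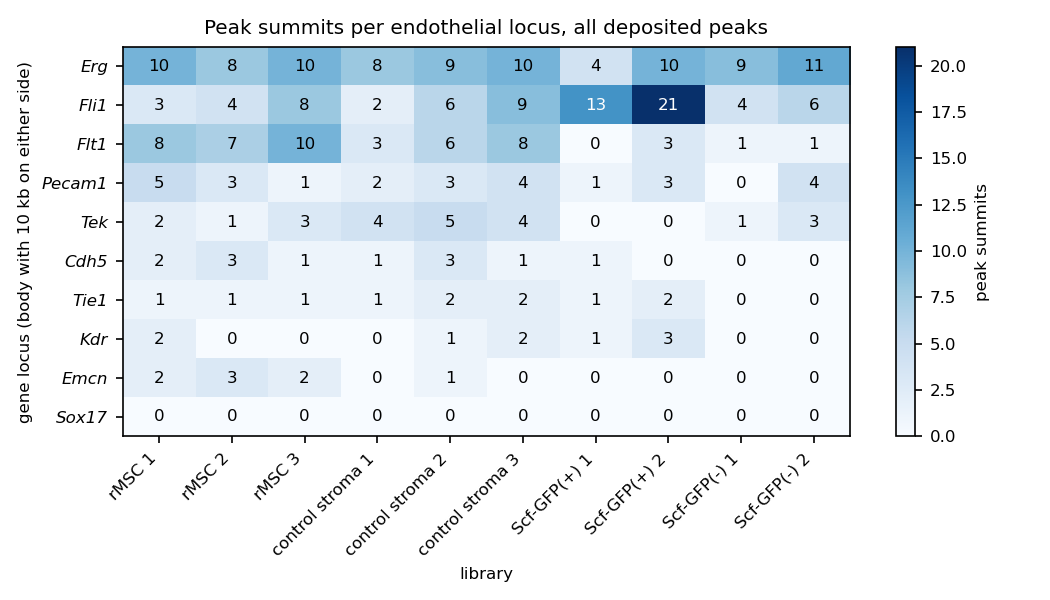
Peak summits per endothelial locus (rows, gene body with 10 kb on either side) in each library (columns), from all deposited peaks, with the number printed in each cell and darker blue for more summits. Erg carries 4 to 11 summits in every library, Fli1 reaches 13 and 21 in Scf-GFP(+), Emcn has summits mostly in rMSC, and the Sox17 row is empty.

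Most summits belonged to the ETS factor loci. Erg held 89 of the 301 and Fli1 76, together 54.8%; Flt1 held 47, Pecam1 26, Tek 23, Cdh5 12, Tie1 11, Kdr 9, Emcn 8 and Sox17 0. Per 100 kb and library, Fli1 had 5.38 summits and was the only one of the 10 above the median of all loci, 4.38. Erg had 3.60, Pecam1 3.21, Tie1 2.85, Flt1 2.54, Cdh5 1.91, Tek 1.48, Kdr 1.36 and Emcn 0.727. Sox17, a short locus, was among the 2575 loci (11.9% of all) with no summit in any library. Of the 301 peaks, 239 had their summit in the gene body and 62 in a flank, and 30.9% were stronger than the median peak of their own list. The median member peak stood between strength percentiles 22.3 and 47.8 of its list, by library.

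Peaks that overlapped between libraries merged into 116 regions in these loci, out of 201290 in all. None of the 116 was open in all 10 libraries, against 5.24% of all regions, and 63 (54.3%) were found in 1 library, against 51.5%. The shares found in all 6 cultured and no sorted library (4 regions, 3.45%, against 3.17% of all), in the 3 rMSC libraries alone (2 regions, 1.72%, against 2.12%) and in both Scf-GFP(+) libraries alone (3 regions, 2.59%, against 2.31%) were near those of all regions. None was found in the 3 control libraries alone, against 1.68% of all regions, or in both Scf-GFP(-) libraries alone, against 1.72%.

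Tests on the equal-size lists covered those loci that averaged 2 summits or more over the libraries, a filter that only Erg and Fli1 of the 10 passed. Changes are log2(summits + 0.5) from limma fitted over 9153 loci, with adjusted p by Benjamini-Hochberg and a threshold of 0.05. In rMSC against Scf-GFP(+), Fli1 had fewer summits and Erg did not pass, where 6.61% of all loci had fewer and 7.53% more. In control stroma against Scf-GFP(+), Fli1 had fewer, as did 6.05% of loci, with 5.66% more. In Scf-GFP(+) against Scf-GFP(-), Fli1 had more, as did 13.5% of loci, with 16.8% fewer. In rMSC against Scf-GFP(-), Fli1 had fewer, as did 23.2% of loci, with 17.2% more. In rMSC against control stroma 0 of the 2 passed (limma; Fli1 alone had an unadjusted p under 0.05), where 3.38% of loci did. In control stroma against Scf-GFP(-) 0 of the 2 passed (Erg alone had an unadjusted p under 0.05), where 41.1% did.

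Among the junction and surface genes, Cdh5 (chromosome 8, 104101613 to 104144504), Pecam1 (chromosome 11, 106654213 to 106715281) and Emcn (chromosome 3, 137341062 to 137431069) had few summits. Cdh5 had 2, 3 and 1 summits in rMSC, 1, 3 and 1 in control stroma, 1 and 0 in Scf-GFP(+), and 0 and 0 in Scf-GFP(-), from all deposited peaks. Both cultures were above Scf-GFP(-) in every library, and they overlapped with each other and with Scf-GFP(+). With all deposited peaks and a lower filter, a mean of at least 1 summit, Cdh5 passed against Scf-GFP(-) in rMSC (2.00 ± 1.00 against 0 summits, SD, limma adjusted p = 0.0248; 22.8% of 15718 loci had more) and in control stroma (1.67 ± 1.15 against 0, adjusted p = 0.0395; 19.1% had more). Cdh5 reached that filter only through rMSC. In equal-size lists, where Cdh5 was below it, the counts were 1, 0 and 1 in rMSC, 1, 0 and 0 in control stroma, 1 and 0 in Scf-GFP(+), and 0 and 0 in Scf-GFP(-). With no filter, neither rMSC (limma adjusted p = 0.331) nor control stroma (0.649) passed against Scf-GFP(-) there. Its most shared region, chr8:104146238-104146728, lay in the upper-coordinate flank and was called in all 3 rMSC libraries, control stroma 1 and 3 and Scf-GFP(+) 1.

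Pecam1 had 5, 3 and 1 summits in rMSC, 2, 3 and 4 in control stroma, 1 and 3 in Scf-GFP(+), and 0 and 4 in Scf-GFP(-). The 4 groups overlapped, and no comparison passed at the lower filter (limma adjusted p of 0.330 to 0.999 over the 6 comparisons with all deposited peaks). The 2 Scf-GFP(-) libraries spanned 4 summits, as did rMSC. A flank region, chr11:106722727-106723392, was called in 8 libraries: all rMSC (deposited fold 7.28, 6.18 and 9.66), all control stroma (7.39, 4.63 and 6.94), Scf-GFP(+) 2 (4.40) and Scf-GFP(-) 2 (6.47).

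Emcn had 2, 3 and 2 summits in rMSC, 0, 1 and 0 in control stroma, and 0 in each of the 4 sorted libraries. No library outside rMSC reached the lowest rMSC count. In equal-size lists the counts were 1, 1 and 2 in rMSC and 0 in the other 7 libraries. Its mean was below both filters. With no filter but a summit in at least 1 library (17836 loci), limma gave adjusted p = 0.00201 for rMSC against control stroma, 0.00197 against Scf-GFP(+) and 0.00103 against Scf-GFP(-). There 2.20%, 6.51% and 13.3% of loci had more summits. Emcn entered that fit only through rMSC, and no other group had any spread. These calls thus rest on 1 or 2 summits per library and are no support for a difference. Of the 8 peaks, 6 fell in a single stretch of the flank upstream of the listed start, chr3:137331491-137332308. rMSC 1 and 3 had 2 peaks each there, rMSC 2 and control stroma 2 had 1, and the deposited fold was at most 6.95.

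Of the VEGF receptors, Flt1 (chromosome 5, 147561604 to 147726438) was open mainly in culture. It had 8, 7 and 10 summits in rMSC, 3, 6 and 8 in control stroma, 0 and 3 in Scf-GFP(+), and 1 and 1 in Scf-GFP(-). Every rMSC library was above every sorted library; control stroma 1 equalled Scf-GFP(+) 2. With all deposited peaks and a mean of at least 2 summits (11970 loci), rMSC had more than Scf-GFP(+) (8.33 ± 1.53 against 1.5 ± 2.12, log2 change 2.73, SE 0.67, limma adjusted p = 0.0355; 6.98% of loci had more). rMSC also had more than Scf-GFP(-) (8.33 ± 1.53 against 1.00 ± 0.00, log2 change 2.54, SE 0.67, adjusted p = 0.0164; 25.7% had more). Control stroma did not pass, with 5.67 ± 2.52 summits, at adjusted p = 0.105 against Scf-GFP(+) and 0.0519 against Scf-GFP(-), and rMSC against control stroma had a change of 0.60 (SE 0.60, adjusted p = 0.720). With the same peaks and a mean of at least 1 summit (15718 loci), rMSC against Scf-GFP(+) did not pass (limma adjusted p = 0.0613). At that filter rMSC against Scf-GFP(-) passed (adjusted p = 0.0353), where 22.8% of loci had more. In equal-size lists the counts were 4, 4 and 3 in rMSC, 1, 1 and 3 in control stroma, 0 and 1 in Scf-GFP(+), and 1 and 1 in Scf-GFP(-). With a mean of at least 1 summit (14310 loci), rMSC against Scf-GFP(+) passed there (log2 change 2.26, SE 0.54, adjusted p = 0.0416; 6.31% of loci had more) and rMSC against Scf-GFP(-) did not (1.46, SE 0.54, adjusted p = 0.0782).

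Of 21 regions in Flt1, 14 were called in 1 library and 4 in 5 or more. A region in the 5′ part of the gene, chr5:147707453-147708067, was called in all 6 cultured and in no sorted library, with a deposited fold of 12.9, 12.4 and 8.92 in rMSC and 14.04, 13.1 and 12.3 in control stroma. These peaks stood at strength percentiles 76.0 to 85.6 of their lists. A region near the other end, chr5:147589767-147590533, was also called in all 6 cultures and no sorted library, at a fold of 13.8, 10.0 and 5.20 in rMSC and 4.43, 3.86 and 4.63 in control stroma. Kdr, the other VEGF receptor, on chromosome 5 from 75932827 to 75979072, had 2, 0 and 0 summits in rMSC, 0, 1 and 2 in control stroma, 1 and 3 in Scf-GFP(+), and 0 and 0 in Scf-GFP(-). It was below every filter but the absent one, and no comparison passed. The 3 groups with summits overlapped.

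**Figure D2:**
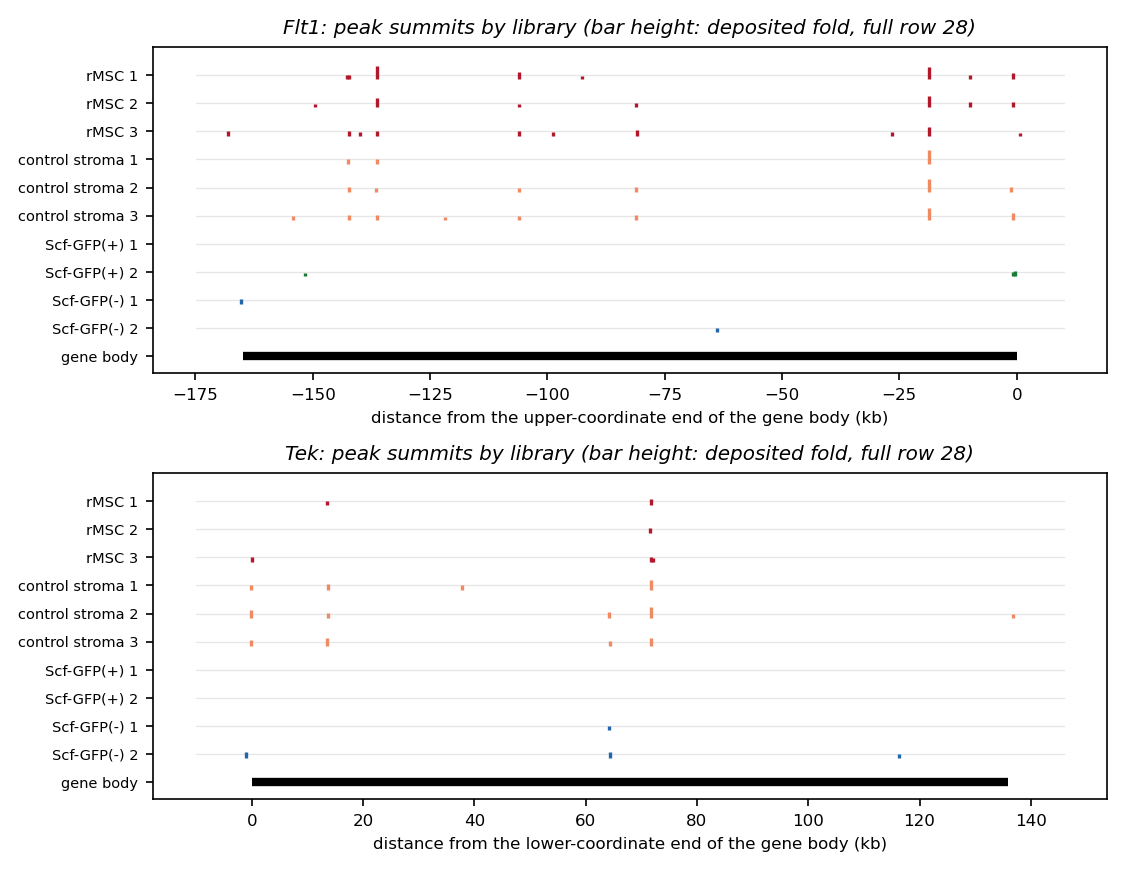
Peak summits (bars) along Flt1 and Tek in each library, all deposited peaks, against the distance in kb from the named end of the gene body (black line). Bar height is the deposited fold enrichment of the peak, with a full row equal to 28. Flt1 shows a bar in each of the 6 cultured rows at a shared place near either end of the gene, and 0 to 3 summits in each sorted row, and Tek shows no bar in the Scf-GFP(+) rows.

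Of the angiopoietin receptors, Tek, on chromosome 4 from 94739086 to 94874976, had no summit in Scf-GFP(+). The counts were 2, 1 and 3 in rMSC, 4, 5 and 4 in control stroma, 0 and 0 in Scf-GFP(+), and 1 and 3 in Scf-GFP(-). Control stroma was above every other library, and Scf-GFP(+) below. With all deposited peaks, where Tek reached the mean of 2 summits only through control stroma, control stroma had more than Scf-GFP(+) (4.33 ± 0.58 against 0 summits, limma adjusted p = 0.00825; 2.87% of loci had more), rMSC had more than Scf-GFP(+) (2.00 ± 1.00 against 0, adjusted p = 0.0205) and Scf-GFP(+) had fewer than Scf-GFP(-) (0 against 2.00 ± 1.41, adjusted p = 0.0142; 3.78% had fewer). The means of rMSC and control stroma did not differ past the threshold (2.00 ± 1.00 against 4.33 ± 0.58, log2 change −1.03, SE 0.42, adjusted p = 0.308). In equal-size lists Tek had 1, 1 and 0 summits in rMSC, 3, 3 and 3 in control stroma, 0 and 0 in Scf-GFP(+), and 1 and 3 in Scf-GFP(-). With the lower filter, which Tek again reached only through control stroma, control stroma against Scf-GFP(+) (limma adjusted p = 0.0234; 4.84% of loci had more) and Scf-GFP(+) against Scf-GFP(-) (0.0390; 13.5% had fewer) passed, and rMSC against Scf-GFP(+) did not (log2 change 1.06, adjusted p = 0.281). With no filter, control stroma against Scf-GFP(+) (adjusted p = 0.0218; 4.60% had more) and Scf-GFP(+) against Scf-GFP(-) (0.0446; 11.2% had fewer) passed, and rMSC against Scf-GFP(+) did not (0.280). An intragenic region, chr4:94810373-94811266, was called in all 6 cultured and in no sorted library, at a fold of 6.47, 6.18 and 5.20 in rMSC and 10.3, 10.8 and 8.49 in control stroma.

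Tie1 lies on chromosome 4 from 118471191 to 118489849. It had 1, 1 and 1 summits in rMSC, 1, 2 and 2 in control stroma, 1 and 2 in Scf-GFP(+), and 0 and 0 in Scf-GFP(-). Scf-GFP(-) was the one group below the others. With all deposited peaks and a mean of at least 1 summit, rMSC (1.00 ± 0.00, limma adjusted p = 0.00699), control stroma (1.67 ± 0.58, adjusted p = 0.00222) and Scf-GFP(+) (1.5 ± 0.71, adjusted p = 0.00724; 11.5% of loci had more) each had more than Scf-GFP(-), at 0. Tie1 reached that filter only through control stroma, and with no spread in rMSC and Scf-GFP(-) and differences of 1 or 2 summits the calls rest on single peaks. In equal-size lists the counts were 0, 1 and 1 in rMSC, 1 in each control library, 1 in each Scf-GFP(+) library and 0 in each Scf-GFP(-) library. With no filter there, control stroma passed against Scf-GFP(-) (limma adjusted p = 0.0393; 12.4% of loci had more), and rMSC (0.139) and Scf-GFP(+) (0.0675) did not. Nearly all of them were 1 region beyond the 3′ end of the gene, chr4:118465394-118466301, with a deposited fold of 4.05, 6.95 and 5.94 in rMSC, 20.0, 19.3 and 23.1 in control stroma, and 5.68 and 6.29 in Scf-GFP(+). These peaks stood at strength percentiles 9.98 to 60.6 of the rMSC lists, 91.3 to 95.7 of the control lists, and 37.1 and 64.5 of the Scf-GFP(+) lists. Only 2 of the 11 Tie1 summits were in the gene body.

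The ETS factor Fli1 (chromosome 9, 32422204 to 32543432) had its highest counts in Scf-GFP(+). In equal-size lists it had 1, 1 and 1 summits in rMSC, 2, 3 and 5 in control stroma, 11 and 13 in Scf-GFP(+), and 2 and 6 in Scf-GFP(-). Both Scf-GFP(+) libraries were above all the others. rMSC had fewer than Scf-GFP(+) (1.00 ± 0.00 against 12.0 ± 1.41, log2 change −3.05, SE 0.43, limma adjusted p = 0.00625), as did control stroma (3.33 ± 1.53 against 12.0 ± 1.41, −1.78, SE 0.43, adjusted p = 0.0408). Scf-GFP(+) had more than Scf-GFP(-) (12.0 ± 1.41 against 4.00 ± 2.83, 1.63, SE 0.48, adjusted p = 0.0376), and rMSC had fewer than Scf-GFP(-) (1.00 ± 0.00 against 4.00 ± 2.83, −1.43, SE 0.43, adjusted p = 0.0335). rMSC and control stroma had a change of −1.28 (SE 0.39, adjusted p = 0.135), and control stroma and Scf-GFP(-) one of −0.15 (SE 0.43, adjusted p = 0.817).

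These Fli1 calls depended on the filter and on which peaks were counted. In the same equal-size lists with a mean of at least 1 summit, rMSC passed against Scf-GFP(+) (limma adjusted p = 0.00737) and against Scf-GFP(-) (0.0479), while control stroma against Scf-GFP(+) (0.0542) and Scf-GFP(+) against Scf-GFP(-) (0.0528) did not. With no filter rMSC against Scf-GFP(+) passed (0.00575), and control stroma against Scf-GFP(+) (0.0535), Scf-GFP(+) against Scf-GFP(-) (0.0598) and rMSC against Scf-GFP(-) (0.0538) did not. From all deposited peaks, Fli1 had 3, 4 and 8 summits in rMSC, 2, 6 and 9 in control stroma, 13 and 21 in Scf-GFP(+), and 4 and 6 in Scf-GFP(-). Scf-GFP(+) was again above every other library, but no comparison passed: rMSC against Scf-GFP(+) had a change of −1.74 (SE 0.55, limma adjusted p = 0.0814), control stroma against Scf-GFP(+) one of −1.67 (SE 0.55, adjusted p = 0.119), Scf-GFP(+) against Scf-GFP(-) one of 1.66 (SE 0.61, adjusted p = 0.0895) and rMSC against Scf-GFP(-) one of −0.08 (SE 0.55, adjusted p = 0.924). Leaving out any 1 library kept rMSC against Scf-GFP(+) past the threshold (adjusted p of 0.00257 to 0.0379). Control stroma against Scf-GFP(+) lost its call without any 1 rMSC or Scf-GFP(+) library or without control stroma 1 or 2 (adjusted p up to 0.164). On flow cell AC99CPACXX alone, which holds every library but the first of each group, each sorted group has 1 library, assumed to vary like the cultures that give the spread. There rMSC against Scf-GFP(+) passed (−3.17, adjusted p = 0.0490) while control stroma against Scf-GFP(+) (−1.62, 0.170), Scf-GFP(+) against Scf-GFP(-) (1.05, 0.230) and rMSC against Scf-GFP(-) (−2.12, 0.0623) did not. Flow cell AHY33MBCXX has 1 library per group and gives no value. Both calls against Scf-GFP(-) were also lost without any 1 rMSC or Scf-GFP(+) library, and without control stroma 2 (adjusted p up to 0.145 for Scf-GFP(+) and 0.204 for rMSC). The first was lost without Scf-GFP(-) 1 as well, and the second without Scf-GFP(-) 2, when its change was −0.74. With only peaks of −log10 q of at least 5, which leaves lists of unequal size, rMSC against Scf-GFP(-) turned to 0.83.

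The Fli1 peaks of Scf-GFP(+) were also wide. The deposited peaks with a summit in the locus covered 1077, 1362 and 2155 bp in rMSC, 752, 2252 and 2605 bp in control stroma, 8119 and 9933 bp in Scf-GFP(+), and 1011 and 1751 bp in Scf-GFP(-). This measure does not count summits, so a wide stretch split into several peaks does not raise it, and Scf-GFP(+) was again above all other libraries. The widest single Fli1 peak was 1951 and 1681 bp in the Scf-GFP(+) libraries and at most 622 bp elsewhere. It lay over the upper-coordinate end of the gene body in Scf-GFP(+) 1 (in chr9:32542403-32544968) and at the most shared intragenic region, chr9:32518338-32520018, in Scf-GFP(+) 2. That region was called in 9 libraries, all but Scf-GFP(-) 1, at a deposited fold of 12.1, 13.9 and 10.4 in rMSC, 5.91, 7.71 and 7.71 in control stroma, 13.5 and 13.8 in Scf-GFP(+), and 5.03 in Scf-GFP(-) 2. The neighbouring chr9:32540048-32542225 was called in the same 9 libraries.

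**Figure D3:**
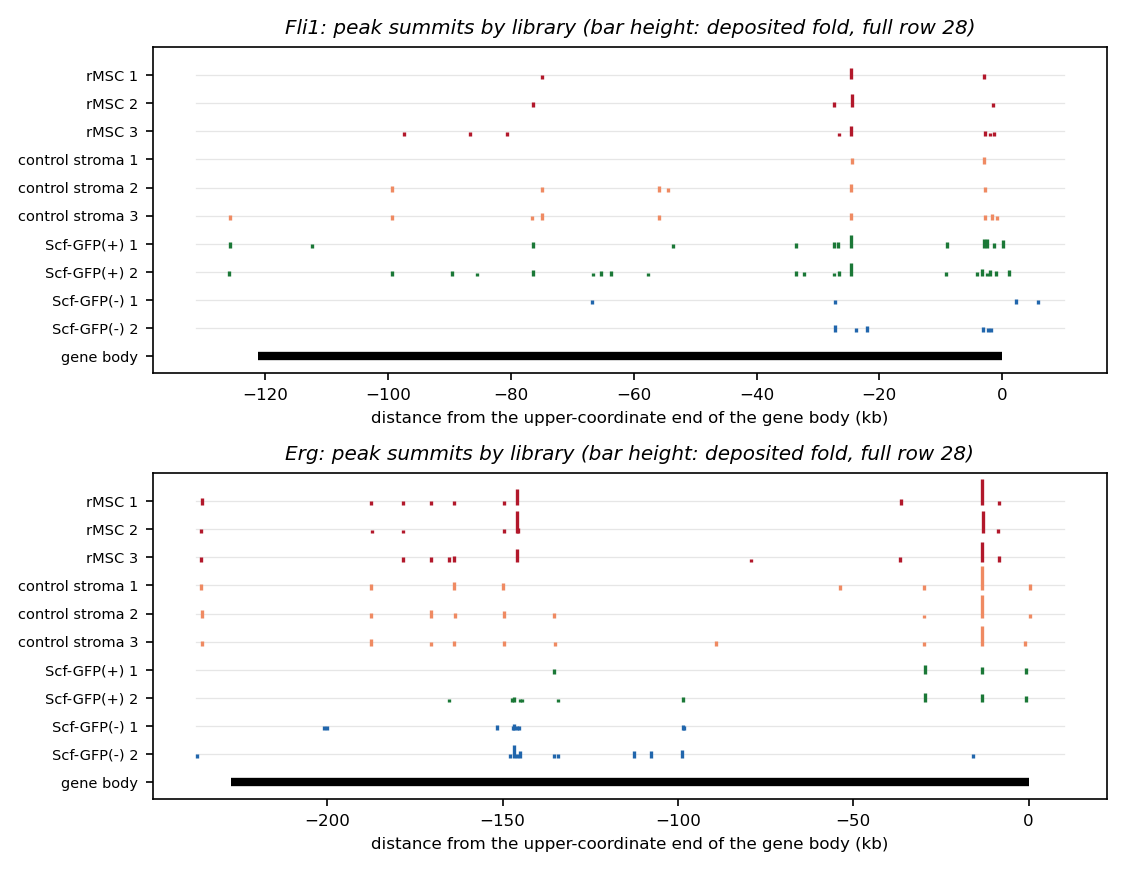
Peak summits (bars) along Fli1 and Erg in each library, all deposited peaks, against the distance in kb from the upper-coordinate end of the gene body (black line). Bar height is the deposited fold enrichment of the peak, with a full row equal to 28. In Fli1 the Scf-GFP(+) rows carry 13 and 21 bars along the gene, and in Erg a bar close to the upper-coordinate end is in all 6 cultured and both Scf-GFP(+) rows and in no Scf-GFP(-) row.

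Erg (chromosome 16, 95359169 to 95586600), the other ETS factor, was open in every library. From all deposited peaks it had 10, 8 and 10 summits in rMSC, 8, 9 and 10 in control stroma, 4 and 10 in Scf-GFP(+), and 9 and 11 in Scf-GFP(-). The groups overlapped. In equal-size lists the counts were 4, 3 and 4 in rMSC, 6, 5 and 2 in control stroma, 4 and 4 in Scf-GFP(+), and 7 and 11 in Scf-GFP(-), so Scf-GFP(-) was above all the others. rMSC against Scf-GFP(-) came closest to the threshold (3.67 ± 0.58 against 9 ± 2.83, log2 change −1.17, SE 0.40, limma adjusted p = 0.0505). Control stroma (4.33 ± 2.08, change −1.05, SE 0.40, adjusted p = 0.0690) and Scf-GFP(+) (4.00 ± 0.00, change −1.05, SE 0.44, adjusted p = 0.113) against Scf-GFP(-) did not pass either.

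The open places within Erg were not called in the same libraries. The region with the highest deposited fold, chr16:95572849-95574033, was called in 8 libraries, at a deposited fold of 27.5, 23.2 and 20.1 in rMSC, 25.1, 23.9 and 20.8 in control stroma, and 7.10 and 8.17 in Scf-GFP(+), and in neither Scf-GFP(-) library. Its peaks stood at strength percentiles 93.8 to 96.2 of the cultured lists, and 55.3 and 76.1 of the Scf-GFP(+) lists. A second stretch, chr16:95439062-95441682, was called in all 3 rMSC libraries (fold 17.0, 23.2 and 13.4), in no control library, in Scf-GFP(+) 2 (5.03) and in both Scf-GFP(-) libraries (7 and 13.7). Its strongest summits were not at the same base: they lay at 95440546 to 95440595 in rMSC and at 95439897 and 95439924 in Scf-GFP(-). A stretch nearer the upper-coordinate end, chr16:95556598-95557485, was called in all 3 control libraries (4.43, 3.08 and 3.86), both Scf-GFP(+) libraries (9.95 and 10.1) and no other. The region chr16:95487632-95488375 was called in Scf-GFP(+) 2 and both Scf-GFP(-) libraries. Sox17 (chromosome 1, 4490928 to 4497426) had no summit in any library.

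**Figure D4:**
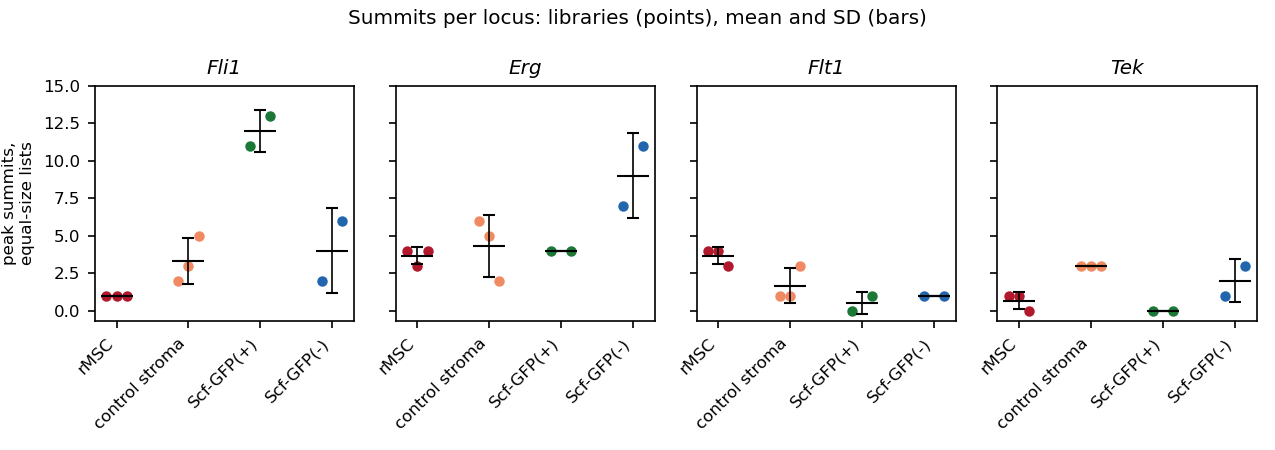
Peak summits of Fli1, Erg, Flt1 and Tek in equal-size lists of 39912 peaks, 1 point per library, with the group mean (horizontal mark) and SD (bars), by group. The Scf-GFP(+) points of Fli1, 11 and 13, are above all other points of that panel, and the Tek points of Scf-GFP(+) are at 0.

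Of the 8 ligand genes of the VEGF and angiopoietin families (Vegfa, Vegfb, Vegfc, Vegfd, Pgf, Angpt1, Angpt2 and Angpt4), 7 reached the filter of 2 summits, Vegfc being the exception. Vegfd, whose product in mice binds VEGFR3, had 4, 2 and 3 summits in rMSC, 5, 3 and 3 in control stroma and 1 in each sorted library. It passed in rMSC and in control stroma against Scf-GFP(+) (log2 changes 1.18 and 1.44, SE 0.28 each, limma adjusted p = 0.0337 and 0.0229) and was the only ligand of the 7 to pass there. Over all loci 7.53% had more and 6.61% fewer in rMSC, and 5.66% and 6.05% in control stroma. Against Scf-GFP(-), 2 of 7 had more and 2 fewer in each culture, beside 17.2% more and 23.2% fewer of all loci in rMSC and 16.4% and 24.8% in control stroma. Of the 7, Vegfd reached the filter only through control stroma and Pgf only through Scf-GFP(+), so the Vegfd calls are no support for a difference of the list. Angpt4, a TIE2 ligand, had 6, 3 and 5 summits in rMSC, 4, 6 and 3 in control stroma, 4 and 5 in Scf-GFP(+), and 1 and 0 in Scf-GFP(-), and passed in all 3 comparisons with Scf-GFP(-) (adjusted p = 0.00621, 0.00689 and 0.0122). Angpt1, the main agonist of TIE2, had fewer summits in rMSC (6.67 ± 0.58 against 11.5 ± 0.71 in Scf-GFP(-), −0.75, SE 0.21, adjusted p = 0.0264) and in control stroma (7 ± 1.73 against 11.5 ± 0.71, −0.71, SE 0.21, adjusted p = 0.0317). Angpt2 had more summits in Scf-GFP(+) than in Scf-GFP(-) (9 ± 2.83 against 2.50 ± 2.12, 1.84, SE 0.48, adjusted p = 0.0249). No ligand passed between rMSC and control stroma (limma), where 3.38% of all loci did.

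Of 30 other endothelial genes, 15 reached the filter. Summed over all 30, the summits per library were 66 to 78 in rMSC, 67 to 75 in control stroma, 73 to 83 in Scf-GFP(+) and 87 to 91 in Scf-GFP(-). Between rMSC and control stroma 1 of 15 passed, where 3.38% of all loci did. Plvap, which encodes a protein of fenestrated endothelium, had 3, 4 and 4 summits in rMSC and 8, 7 and 6 in control stroma (log2 change −0.85, SE 0.17, limma adjusted p = 0.0473). Against Scf-GFP(+), Ptprb, which encodes the phosphatase of TIE2, had more in rMSC (4.67 ± 2.08 against 0.50 ± 0.71, 2.50, SE 0.47, adjusted p = 0.0158) and in control stroma (4.00 ± 0.00 against 0.50 ± 0.71, 2.38, SE 0.47, adjusted p = 0.0234). Lmo2, a transcription cofactor of endothelial and blood cells, had fewer in both cultures, and Stab1, a scavenger receptor of sinusoids, fewer in rMSC (2.00 ± 1.00 against 5.50 ± 0.71, −1.34, SE 0.32, adjusted p = 0.0329). These were 1 of 15 with more and 2 fewer in rMSC, and 1 more and 1 fewer in control stroma. Over all loci 7.53% had more and 6.61% fewer in rMSC, and 5.66% and 6.05% in control stroma.

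Against Scf-GFP(-) the same list split: 5 of 15 had more and 6 fewer in rMSC, 5 more and 5 fewer in control stroma, and 3 more and 2 fewer in Scf-GFP(+). Over all loci 17.2% had more and 23.2% fewer in rMSC, 16.4% and 24.8% in control stroma, and 13.5% and 16.8% in Scf-GFP(+). Of the 15, 4 reached the filter only through 1 group, Ptprb through rMSC and Tal1, Lmo2 and S1pr1 through Scf-GFP(-), so their calls are no support for a difference of the list. The median change was −0.63 in rMSC, −0.08 in control stroma and 0.00 in Scf-GFP(+), beside −0.18, −0.24 and −0.21 over all loci. Ets1, an ETS factor of endothelial, stromal and lymphoid cells, had 8, 10 and 9 summits in rMSC, 11, 9 and 10 in control stroma, 10 and 11 in Scf-GFP(+), and 1 and 1 in Scf-GFP(-) (Scf-GFP(+) against Scf-GFP(-), 2.87, SE 0.14, limma adjusted p = 3.13e-05). Elk3 and Nrp1 passed in the same direction in all 3 comparisons. Lmo2 went the other way in the cultures, with 0, 1 and 1 summits in rMSC, 0, 0 and 0 in control stroma, 5 and 3 in Scf-GFP(+), and 14 and 11 in Scf-GFP(-). Tal1, a master factor of blood and endothelial precursors, had 0, 0 and 1 in rMSC, 0, 0 and 1 in control stroma, 2 and 3 in Scf-GFP(+), and 10 and 14 in Scf-GFP(-). Gata2 and Vwf also had fewer in both cultures. Lmo2, Tal1, Gata2 and Vwf are used by blood or megakaryocyte cells too, and the summed blood markers were highest in Scf-GFP(-). Ikzf1, a lymphoid factor that reached the filter only through Scf-GFP(-), had 0 summits in each cultured library, 4 and 2 in Scf-GFP(+), and 12 and 19 in Scf-GFP(-). Of 8 pan-blood loci tested against Scf-GFP(-), 4 had fewer in rMSC and 6 in control stroma, while 1, Itgb2, had more in each. Of the 8, 5 reached the filter only through 1 group, Ptprc, Ikzf1, Lcp1 and Runx3 through Scf-GFP(-) and Itgb2 through rMSC. Their calls are no support for a difference of the list. Itgb2 had 4, 3 and 4 summits in rMSC and 2 and 1 in Scf-GFP(-), and Cd53 had 0 in both Scf-GFP(-) libraries. The part of blood or megakaryocyte cells in the endothelial list was not tested.

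**Figure D5:**
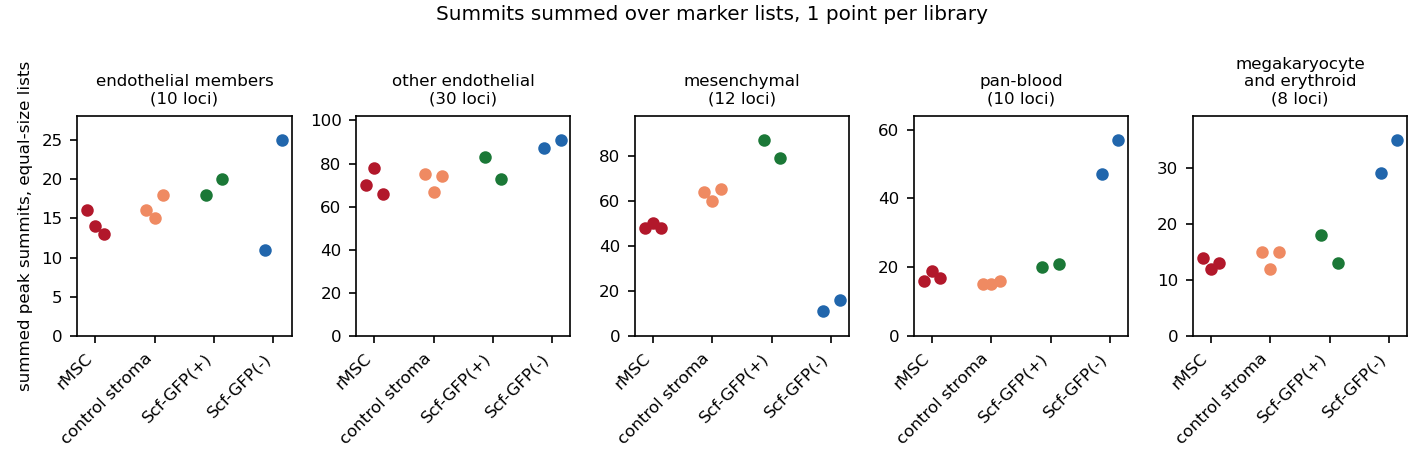
Peak summits in equal-size lists summed over the loci of each list, 1 point per library, by group; the vertical axes start at 0 and differ between panels. The mesenchymal sums are lowest and the blood sums highest in Scf-GFP(-), while the sums of the 10 endothelial members overlap between Scf-GFP(-), at 11 and 25, and every other group.

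Pericyte and smooth muscle loci, 8 in number and 3 tested, had summed summits of 14 to 16 in rMSC, 15 to 21 in control stroma, 27 to 32 in Scf-GFP(+) and 5 to 10 in Scf-GFP(-). Notch3, a receptor of mural cells, had 2, 1 and 3 summits in rMSC, 2, 1 and 1 in control stroma, 11 and 8 in Scf-GFP(+), and 4 and 4 in Scf-GFP(-), and so was highest in the libraries where Fli1 was highest. It passed in rMSC (log2 change −2.07, SE 0.38, limma adjusted p = 0.0142) and in control stroma (−2.47, SE 0.38, adjusted p = 0.0105) against Scf-GFP(+). There 6.61% and 6.05% of all loci had fewer. In control stroma Notch3 also had fewer than in Scf-GFP(-), as did 24.8% of loci. Cspg4 had 4, 3 and 4 summits in rMSC and 6, 5 and 6 in control stroma. Scf-GFP(+) had 4 and 4 there, and Scf-GFP(-) 0 and 1. Cspg4 had more in all 3 comparisons with Scf-GFP(-), where 17.2, 16.4 and 13.5% of loci had more. Myh11 and Des were also highest in Scf-GFP(+), Mcam in Scf-GFP(+) 1 alone, and Rgs5, Cspg4, Acta2 and Tagln were not.

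Across the 10 libraries, the loci whose log2(summits + 0.5) was most like that of the 3 members with most summits were named as a description. For Fli1 they were Heyl (r = 0.942), Lbh (r = 0.940) and Sdcbp (r = 0.918), for Erg Adck2 (r = 0.943), Isg15 (r = 0.925) and Hmgb2 (r = 0.924), and for Flt1 Azin2 (r = 0.954), Cflar (r = 0.938) and Ccdc85b (r = 0.934). Heyl had 0, 0 and 0 summits in rMSC, 1, 1 and 2 in control stroma, 8 and 7 in Scf-GFP(+), and 0 and 1 in Scf-GFP(-). These are the highest of 9131 to 9139 loci compared per gene, and the 10 points share 4 groups and each library's list.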

How the data were processed

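Mouse ATAC-seq peak lists, 1 per library (10 libraries, 4 groups from the labels), were analysed as the authors deposited them. The submitters' processing notes name BWA, MACS2 and mm10 without versions; their settings are not stated in those notes. The labels give 2700 to 5000 sorted cells, 13 or 17 PCR cycles and 100 bp read pairs per library. Deposited with each peak are the authors' fold enrichment (a ratio to background), −log10 p-value, −log10 q-value and a score derived from the q-value. They served to rank or filter a library's own peaks and to describe them. Depth is unknown, and a peak list bounds no absence. Flow cells were read from the deposited names.

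Peaks on chromosomes 1 to 19 and X were kept. Gene bodies came from RefSeq GRCm38.p6 (mm10 coordinates, 1-based). Summits were counted per protein-coding locus, in all deposited peaks and in equal-size lists of the 39912 peaks of highest −log10 p, with peaks tied at the end of a list drawn at random. A locus can hold summits that belong to a neighbour: 1 of the 301 peaks had its summit in another protein-coding gene. limma 3.58.1 (R 4.3.3) with a trend fitted log2(summits + 0.5) for the 4 groups together, with 6 residual and 1.50 prior degrees of freedom, over loci averaging 2 summits or more, two-sided, and Benjamini-Hochberg adjustment over all loci of a comparison. The scale understates changes of low loci, and against a group at 0 no fold is given. The fit was tested on simulated counts.

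The 10 genes and the lists were chosen with earlier results of these data known. By rule, the text names all 10 members, up to 4 passing genes of each other list per direction, the 3 most alike loci more than 1 Mb away, and the regions in most libraries or strongest in a group; other regions were picked after their values were seen. Start sites were taken for the 6 members matched in the promoter table used here. Alternatives covered peak sets, scaling, filters, the pseudocount, locus width, samples fitted, flow cell, the replicate block and each library left out.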

Additional observations from a re-analysis of the deposited data

How the results depend on the processing

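The number of the 10 members called moved with the peak set and the filter, and the cause was not tested. Equal-size lists with a mean of at least 2 summits tested 2 members. All deposited peaks, or a mean of at least 1 summit, tested 5, and both together 7. Counts of settings that test different numbers are not comparable. Brackets give the calls, in either direction, over all loci tested. All deposited peaks gave 2 in rMSC against Scf-GFP(+) (1022 of 11970). The counts of the other comparisons stayed, but the member called did not. Fli1 passed in no comparison there, and the calls were of Flt1 and Tek. Scaled to the mean list length, all deposited peaks gave 3 in rMSC against Scf-GFP(+) (1216 of 11941) and 2 in rMSC against Scf-GFP(-) (5068). They gave 3 in control stroma against Scf-GFP(+) (941), 1 in control stroma against Scf-GFP(-) (5191) and 3 in Scf-GFP(+) against Scf-GFP(-) (3279). With −log10 q of at least 5 each of the 4 comparisons that had called 1 gave 0. Over all loci that setting called 1387 of 8417 in rMSC and 1205 in control stroma against Scf-GFP(+). Against Scf-GFP(-) it called 3134 in rMSC and 2000 in Scf-GFP(+). A mean of at least 1 summit gave 2 in rMSC against Scf-GFP(+) (1695 of 14310). With all deposited peaks (chosen after seeing the data) it gave 3 in rMSC (4488 of 15718), 2 in control stroma (4157) and 2 in Scf-GFP(+) (2328) against Scf-GFP(-). No filter gave 1 in rMSC against control stroma (744 of 17836), 3 in rMSC against Scf-GFP(+) (2310) and 1 in control stroma against Scf-GFP(-) (5327). In equal-size lists with a mean of at least 1 summit or no filter, Tek replaced Fli1 in control stroma against Scf-GFP(+). It did so too in Scf-GFP(+) against Scf-GFP(-). With no filter Emcn replaced Fli1 in rMSC against Scf-GFP(-). The gene body alone gave 0 in control stroma against Scf-GFP(+) (565 of 3315), 1 in control stroma (1636) and 2 in Scf-GFP(+) (1270) against Scf-GFP(-). Pseudocount 1 gave 2 in rMSC against Scf-GFP(-) (3810 of 9153). Fits of the 2 groups alone gave 2 in rMSC against Scf-GFP(-) (2710 of 9686), 0 in control stroma against Scf-GFP(+) (757 of 8846) and 0 in Scf-GFP(+) against Scf-GFP(-) (1072 of 9716). Flow cell AC99CPACXX alone holds 1 library of each sorted group, and no count of calls is given for it. A second draw of tied peaks gave 1 in control stroma (3773 of 9110) and 2 in Scf-GFP(+) (2735) against Scf-GFP(-). All tied peaks kept gave 2 in rMSC against Scf-GFP(+) (1379 of 9737) and Scf-GFP(-) (3862), and 1 in control stroma against Scf-GFP(-) (4021). Both were chosen after seeing the data. Over all loci (9197 to 9235 tested), fits without 1 cultured library called 81 to 132 in rMSC against control stroma. They called 744 to 1117 in rMSC and 516 to 805 in control stroma against Scf-GFP(+). Against Scf-GFP(-) they called 2974 to 3587 in rMSC, 3189 to 3632 in control stroma and 2493 to 2547 in Scf-GFP(+). Without 1 sorted library its group holds 1, and no such share is given. Leaving out 1 library gave 0 to 0 in rMSC against control stroma, 1 to 2 in rMSC against Scf-GFP(+), 0 to 2 in rMSC against Scf-GFP(-), 0 to 1 in control stroma against either sorted group and 0 to 2 in Scf-GFP(+) against Scf-GFP(-).

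Log2 changes that turned sign were near 0 or rested on unequal lists. For Erg in rMSC against control stroma (−0.11) they became 0.048 with all deposited peaks at either filter, 0.041 with the gene body and 0.10 on flow cell AC99CPACXX, and ranged from −0.53 to 0.16 leaving out a library. For Erg in rMSC against Scf-GFP(+) (−0.12) they became 0.51 with all deposited peaks at either filter, 0.21 scaled and 0.060 with −log10 q of at least 5. For Erg in control stroma against Scf-GFP(+) (−0.01) they became 0.46 with all deposited peaks at either filter, 0.31 scaled, 0.53 with −log10 q of at least 5, 0.0038 with pseudocount 1, 0.016 with a flow cell term, 0.056 with the second draw and 0.28 with all ties, and ranged from −0.28 to 0.41 leaving out a library. With −log10 q of at least 5, Erg against Scf-GFP(-) was 0.16 in rMSC, 0.63 in control stroma and 0.10 in Scf-GFP(+), and Fli1 was 0.83 in rMSC and 1.54 in control stroma. Fli1 in control stroma against Scf-GFP(-) (−0.15) was 0.12 with the gene body and ranged from −0.84 to 0.54 leaving out a library. Fli1 in rMSC against Scf-GFP(+) stayed below 0 under each alternative run.

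Replicate numbers did not pair the libraries: deviations of same-numbered libraries correlated at −0.03 to 0.02. With the replicate block control stroma against Scf-GFP(+) had 0 members called (Fli1 −1.93, limma adjusted p = 0.0580), where 342 of 9153 loci were called. Erg was 0.059 in rMSC and 0.17 in control stroma against Scf-GFP(+). Calls over all loci fell to 39 in rMSC against control stroma, beside 309. All deposited peaks moved the median change of all loci against Scf-GFP(-) to 0.32 in rMSC, 0.17 in control stroma and 0.00 in Scf-GFP(+), beside −0.18, −0.24 and −0.21, and turned the balance of calls: rMSC had 3080 more and 690 fewer, beside 1572 more and 2127 fewer. Member summits per library averaged 30.1 with all deposited peaks, 16.6 in equal-size lists and 14.1 with −log10 q of at least 5, and the 116 regions fell to 69 in equal-size lists. Unknown depth limits every statement of absence.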
